A study of Homo sapiens with 22 samples.

Results

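The replication-dependent histone genes encode the bulk of the H1 linker histones and the H2A, H2B, H3 and H4 core histones that package newly copied DNA. They were taken as every row of the mRNA-seq tables whose symbol follows the current naming scheme for these genes (H1-1 to H1-6, and H2AC, H2BC, H3C or H4C followed by a number), which gave 66 of 20411 genes: 6 H1, 16 H2A, 17 H2B, 13 H3 and 14 H4 genes. Their levels were compared in 2 acute myeloid leukaemia cell lines, MOLM-13, which carries a KMT2A fusion, and NB4, an acute promyelocytic line. Cells of each line were treated for 48 h with 2 µM FP54, a degrader that brings the RNA demethylase FTO to the VHL ubiquitin ligase, or with DMSO as the vehicle. There were 3 libraries per treatment and line, each of poly(A)-selected RNA, and each line is a single established culture with its own table of RPKM (reads scaled by the length of the gene and the depth of the library). The labels do not state whether the replicates were separate cultures, so the p-values measure the spread between these libraries. Other samples of the series (m6A and polysome sequencing, 10 in all) were not analysed here.

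Replication-dependent histone mRNAs are unlike other mRNAs of animal cells. They are made mostly in S phase, when NPAT, driven by cyclin E and CDK2, switches on the clustered genes in the histone locus body, and they end in a conserved stem-loop in place of a poly(A) tail. The stem-loop is bound by SLBP, which acts in processing, translation and decay of the message, and the end is cut by a complex that contains the U7 small nuclear ribonucleoprotein. Some of these genes can also yield polyadenylated transcripts from downstream sites. Because the libraries were made from poly(A)-selected RNA, the values below are the levels recovered by that selection, and a change in the amount of message cannot be told apart from a change in the share of it that carries a tail.

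The RNA end itself could be read at the genes. In the first 150 bases after the stop codon, a stem of 6 perfect base pairs starting GG around a loop of 4 bases starting TTT was present in 61 of the 66 genes, against 66 of all 19822 genes searched (0.333%). The 5 genes without it were H2AC11, H2AC15, H2BC10, H3C6 and H4C13. In H2AC11 (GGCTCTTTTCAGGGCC) and H2AC15 a run was found in which 1 of the 6 pairs is a U facing a G. The search did not count U with G as a pair, so these genes lack only a perfect stem. The sites of 8 genes that the results turn on are shown in the sense of the mRNA, with the stem-loop in capitals and 5 bases on each side.
H1-2: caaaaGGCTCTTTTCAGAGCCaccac
H2AC6: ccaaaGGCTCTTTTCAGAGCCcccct
H2AC8: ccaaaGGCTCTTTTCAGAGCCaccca
H2BC9: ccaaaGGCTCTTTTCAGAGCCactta
H2BC12: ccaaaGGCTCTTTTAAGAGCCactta
H3C10: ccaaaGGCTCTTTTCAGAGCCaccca
H4C3: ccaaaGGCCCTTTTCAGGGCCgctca
H4C12: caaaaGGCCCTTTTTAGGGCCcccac
On hg38 these runs lie at chr6:26055739-26055764 (minus strand) for H1-2, chr6:26124664-26124689 (plus) for H2AC6, chr6:26217412-26217437 (plus) for H2AC8, chr6:26252050-26252075 (plus) for H2BC9, chr6:27146361-27146386 (minus) for H2BC12, chr6:27810511-27810536 (plus) for H3C10, chr6:26104312-26104337 (plus) for H4C3 and chr6:27831173-27831198 (minus) for H4C12. Each stem-loop is in the annotated 3′ untranslated region, 23 to 58 bases behind the stop codon. The stem of all 13 H4 genes that had one began GGCCCT, whereas that of the H1, H2A, H2B and H3 genes began GGCTCT. The form of the stem thus went with the histone type. Of the 34 genes tested in MOLM-13, 6 had the GGCCCT stem and 2 of these rose. Another 25 had the GGCTCT stem and 16 rose, where 9.30% of all genes tested were called higher. Of the 3 without a perfect stem, H2AC11 rose and H2AC15 and H3C6 did not pass the test. The difference between the forms was not tested, and it is the same as that between H4 and the other types.

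The genes also share their surroundings. Of the 66, 34 lie in a first cluster on chromosome 6 (hg38, 25723397 to 26285638), 21 in a second (27125897 to 27893891) and 11 on chromosome 1 (149782689 to 149887965). There were 11 pairs of an H2A and an H2B gene that face away from each other with 170 to 251 bases between their annotated starts. Promoter windows from RefSeq (GRCh38.p14, 250 bases before to 50 after the start) were matched for 61 genes. The window listed for H3C4 is that of H2AC7, 2007 bases from the annotated start of H3C4, and was left out. On either strand, TATAAA was present in 41 of the other 60 (68.3%, against 11.5% of all 35116 windows), CCAAT in 51 (85%, against 34.6%) and the octamer ATTTGCAT in 25 (41.7%, against 1.77%). The octamer was in 14 of 17 H2B and 11 of 15 H2A windows and in no H1, H3 or H4 window, and windows of facing genes overlap, so that 1 octamer can count for both. The 250 bases before the starts of H2AC6 (chr6:26123922-26124171, plus strand) and H2AC8 (chr6:26216671-26216920, plus strand) are shown because these were the 2 H2A genes with the highest levels in NB4, where they moved in opposite directions. The capitals mark these 3 motifs on either strand.
H2AC6: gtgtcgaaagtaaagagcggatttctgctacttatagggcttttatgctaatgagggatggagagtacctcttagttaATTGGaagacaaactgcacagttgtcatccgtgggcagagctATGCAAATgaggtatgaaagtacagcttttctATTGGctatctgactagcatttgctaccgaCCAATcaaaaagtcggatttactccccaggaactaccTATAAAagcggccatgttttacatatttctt
H2AC8: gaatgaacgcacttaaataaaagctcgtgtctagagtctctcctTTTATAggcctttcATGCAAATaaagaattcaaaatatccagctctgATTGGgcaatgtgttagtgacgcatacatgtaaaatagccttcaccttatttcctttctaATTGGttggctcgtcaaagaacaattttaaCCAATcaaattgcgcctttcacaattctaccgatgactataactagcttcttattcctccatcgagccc
Each window held all 3 motifs, and each is also the upstream region of the H2B gene facing it (H2BC4 and H2BC8).

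The recovered depth was 16299739 to 17346974 reads in the MOLM-13 DMSO libraries, 5829737 to 19191071 in the MOLM-13 FP54 libraries, 20654111 to 22344308 in the NB4 DMSO libraries and 10595733 to 13071412 in the NB4 FP54 libraries. The FTO level, which does not check a degrader that acts on the protein, was 1.09, 0.938 and 1.01 RPKM with DMSO and 0.897, 1.00 and 1.13 with FP54 in MOLM-13, and 2.86, 2.52 and 2.81 against 2.11, 1.95 and 2.03 in NB4. HOXA9 and MEIS1, which KMT2A fusions keep active, were at 19.1 to 25.4 and 6.05 to 8.40 RPKM in MOLM-13 and at or below 0.716 and 0.190 in NB4, whereas MPO was at or above 1082 RPKM in every NB4 library. ELANE, a granule protease listed as a promyelocytic marker, was at or below 0.218 RPKM in NB4 and at 122 to 240 in MOLM-13. Together the promyelocytic markers listed (ELANE, AZU1 and PRTN3) went the other way from their name. Their sum with DMSO was 622 to 922 RPKM in MOLM-13 and 64.2 to 80.8 in NB4. B cell, T cell and erythroid markers were at or below 1.47 RPKM in both lines except CD3D in NB4 (up to 10.5), and of the epithelial markers EPCAM was at 7.83 to 11.3 RPKM in NB4. CD3D was higher in every NB4 FP54 library than in every DMSO library (a summed level of the 3 T cell markers of 6.04 to 7.01 with DMSO and 10.2 to 10.7 with FP54). KRT8, an epithelial keratin, was higher with FP54 in both lines without overlap, with means of 0.705 and 1.21 RPKM in MOLM-13, where it was not tested, and of 1.22 and 1.86 in NB4, where it was called (adjusted p = 0.0115). The part of these genes in the results below was not tested.

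In MOLM-13, H2A and H2B made up most of the signal. Summed over all 66 genes, the level was 367, 567 and 361 RPKM in the DMSO libraries and 1248, 1024 and 841 in the FP54 libraries, a mean of 432 ± 117 against 1038 ± 203 (SD, n = 3 each). The second DMSO library was the highest of its group, and the groups did not overlap. By type, the ratio of the FP54 to the DMSO mean was 3.36 for H2A, 2.21 for H1, 1.96 for H2B, 1.68 for H3 and 1.48 for H4, and the libraries overlapped between treatments for H3 and H4. These are ratios of sums over genes and carry no test, and without H2AC6 the H2A sum was 21.4 ± 4.6 with DMSO and 47.5 ± 3.8 with FP54, a ratio of 2.22. H2AC6 alone held 36.7% of the summed mean level, and with H2BC12, H2BC5 and H1-2 it held 83.3%. Without these 4 genes the sum was 83.5 ± 17.9 with DMSO and 162 ± 24.4 with FP54.

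**Figure D1:**
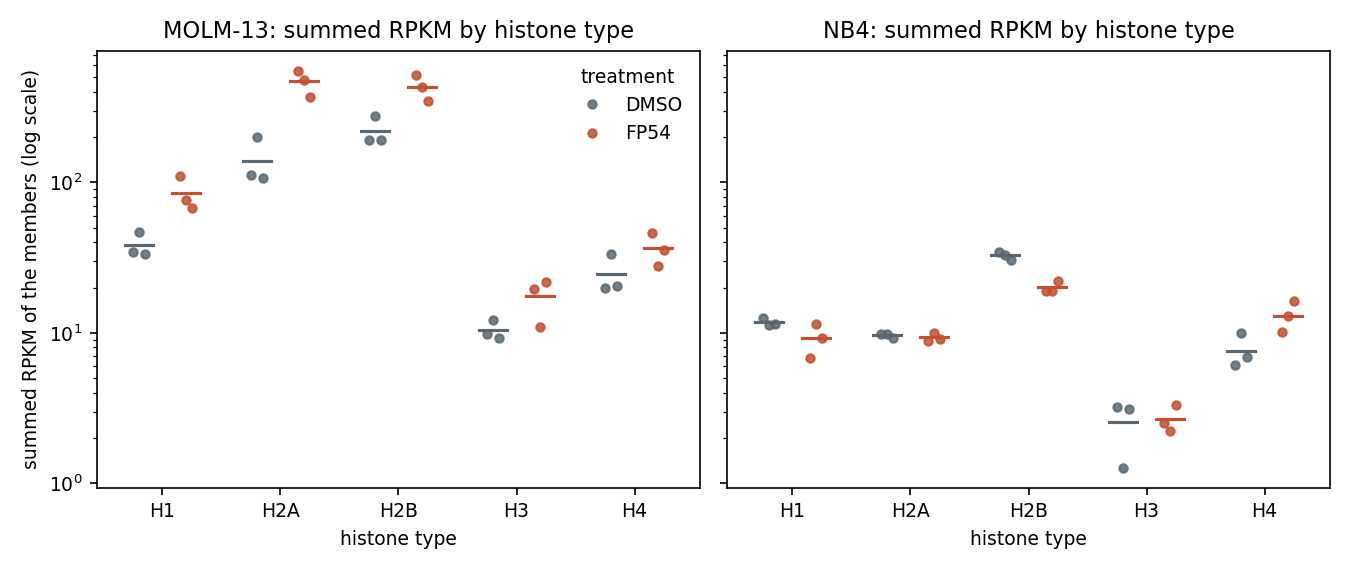
Summed RPKM of the histone genes of each type (log axis) in each library of MOLM-13 (left) and NB4 (right), with a line at the mean of 3 libraries. In MOLM-13 the FP54 libraries lie above the DMSO libraries for H1, H2A and H2B, and in NB4 they lie below them for H2B and above them for H4.

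Of the 66 genes, 34 had a mean of at least 1 RPKM over the 6 MOLM-13 libraries and were tested among 9710 genes. With FP54, 19 of them rose and none fell by the study's cutoff (p below 0.01 and a log2 change of 0.5 or more), where 9.30% of all genes tested were called higher and 9.04% lower. At an adjusted p below 0.05 (limma, Benjamini-Hochberg over all genes) with the same minimum change, 19 were higher and 0 lower, against 9.22% and 8.95% of all genes. At an unadjusted p below 0.05, 24 were higher and 1 lower, against 17.6% and 17.4% of all genes, and limma-voom on recovered reads called 17 higher and 0 lower, against 10.5% and 9.80%. In RNA from whole cultures, more cells of a kind and more RNA per cell cannot be told apart. The fitted change was above 0 in 31 of the 34, with a median of 1.04 on the log2 scale, against 0.00 over all genes tested. In 20 of the 34 every FP54 library was above every DMSO library and in 2 every one was below, where 20.2% and 17.0% of all genes tested did so. With 3 libraries against 3, an exact permutation test of a single gene cannot go below p = 0.1. Of the tested genes, 4 had a DMSO mean below 1 RPKM (H1-5, H2AC14, H2BC13 and H2BC17) and passed through the FP54 libraries. With a mean of 1 RPKM required in each treatment, 16 genes were called.

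H1 genes encode the linker histones that bind DNA where it enters and leaves the nucleosome, and all 3 tested rose. H1-2 was at 32.2, 43.7 and 31.0 RPKM with DMSO and at 103.9, 67.8 and 57.7 with FP54, with no overlap. Its fitted log2 fold change was 1.07 ± 0.22 (SE; adjusted p = 0.0111). H1-4 was at 1.15, 1.95 and 1.39 with DMSO and at 3.51, 3.27 and 5.49 with FP54 (1.38 ± 0.25, adjusted p = 0.00727). These libraries also did not overlap. H1-5 was at 1.14, 0.462 and 0.651 RPKM with DMSO and at 2.16, 4.31 and 3.03 with FP54, which rested on 6 to 15 reads per DMSO library and 20 to 33 per FP54 library. It had a fitted change of 1.96 ± 0.33 (adjusted p = 0.00510), but passed the filter through its FP54 libraries alone.

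H2A genes encode a core histone that pairs with H2B at the outer face of the nucleosome. Of 16 genes 9 were tested, all had fitted changes above 0 (median 1.16) and 6 rose. H2AC6 was the highest of all histone genes, at 92.9, 172 and 88.5 RPKM with DMSO and at 502, 434 and 327 with FP54. The lowest FP54 library was thus well above the highest DMSO library, and the fitted log2 fold change was 1.88 ± 0.25 (adjusted p = 0.00247). H2AC11, the next H2A gene by level and one without a perfect stem-loop, was at 5.27, 8.09 and 5.85 with DMSO and at 16.4, 15.0 and 11.6 with FP54 (1.16 ± 0.20, adjusted p = 0.00543). H2AC8 was at 4.91, 5.81 and 5.69 with DMSO and at 12.8, 15.3 and 10.6 with FP54 (1.21 ± 0.17, adjusted p = 0.00267). Both pairs of groups were separate. The other called genes were H2AC12, H2AC14 and H2AC20, with fitted changes of 1.15, 1.82 and 1.01, and only 36.3% of the 80-base windows (the read length) of H2AC14 occur once in the genome. H2AC14 also passed the filter through its FP54 libraries alone. The libraries of H2AC20 overlapped between treatments, and limma-voom did not call it. Its call was also lost when DMSO replicate 1, DMSO replicate 2, FP54 replicate 1 or FP54 replicate 3 was left out.

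H2B genes showed 7 of 11 tested higher, all 11 with fitted changes above 0 (median 1.14) and none lower. H2BC12 was at 110, 149 and 113 RPKM with DMSO and at 250, 169 and 166 with FP54. The groups were separate, but the change was the smallest among the H2B genes called (0.64 ± 0.19, adjusted p = 0.0434), and it lost its call when DMSO replicate 1, DMSO replicate 3 or FP54 replicate 1 was left out. Only 65.4% of the read-length windows of H2BC12 occur once in the genome, and reads from its other windows cannot be placed at 1 site. H2BC5 was at 57.6, 97.3 and 56.6 with DMSO and at 203, 213 and 134 with FP54 (1.40 ± 0.24, adjusted p = 0.00570). H2BC9 was at 2.36, 3.98 and 1.75 with DMSO and at 10.8, 11.1 and 6.84 with FP54 (1.84 ± 0.29, adjusted p = 0.00452). Neither gene had overlapping groups. The largest fitted change of any histone gene was that of H2BC17, at 0.518, 1.71 and 0.370 with DMSO and at 7.03, 1.84 and 3.03 with FP54 (2.12 ± 0.53, adjusted p = 0.0235). It rested on 3 to 13 reads per DMSO library and, in the FP54 libraries, on 63, 5 and 17 reads, and with FP54 replicate 1 left out it was no longer called. With a DMSO mean of 0.865 RPKM it passed the filter through its FP54 libraries alone. It was not tested with a mean of 1 RPKM required in each treatment. H2BC13, the tested gene nearest to the level filter, was at 1.07, 0.544 and 1.02 with DMSO and at 1.96, 1.14 and 0.737 with FP54 (0.45 ± 0.35, adjusted p = 0.396), and just below the filter lay H3C12, with a mean of 0.650 RPKM with DMSO and 1.21 with FP54.

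H3 genes, which encode the histone whose tail carries many of the well-known marks, were low, and 1 of 5 tested rose. H3C10 was at 2.51, 2.80 and 2.26 RPKM with DMSO and at 8.17, 3.02 and 7.18 with FP54, with no overlap (1.13 ± 0.32, adjusted p = 0.0338). This call, the only one among the H3 genes, was lost when DMSO replicate 3, FP54 replicate 1 or FP54 replicate 3 was left out. H3C2 was at 1.66, 2.16 and 1.92 with DMSO and at 2.14, 2.69 and 4.72 with FP54 (0.64 ± 0.27, adjusted p = 0.121). Its lowest FP54 library lay just below its highest DMSO library. H3C6, which lacks the stem-loop, was at 1.53, 1.88 and 1.25 with DMSO and at 1.09, 0.960 and 1.21 with FP54 (−0.47 ± 0.22, adjusted p = 0.159), and H3C1 had a fitted change of 0.00 ± 0.38.

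H4 genes encode the partner of H3, and 2 of 6 tested rose. H4C12 was at 1.72, 5.39 and 1.64 RPKM with DMSO and at 16.7, 7.53 and 10.7 with FP54 (2.11 ± 0.42, adjusted p = 0.0101). The groups did not overlap, but only 8.12% of the 80-base windows of this gene occur once in the genome, so that reads from its near-identical copy cannot be kept apart at most positions. H4C8, the other called gene, had a fitted change of 0.86. H4C3 was at 5.37, 6.97 and 6.55 with DMSO and at 8.75, 4.66 and 7.39 with FP54, the groups overlapping (0.10 ± 0.23, adjusted p = 0.789). H4C5 was at 2.79, 5.51 and 2.66 with DMSO and at 1.52, 2.08 and 2.62 with FP54, every FP54 library being lower (−0.74 ± 0.29, adjusted p = 0.102). H4C2 had a fitted change of −0.29 ± 0.25. The H4 genes thus held both the second largest and the smallest fitted change of the 34.

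**Figure D2:**
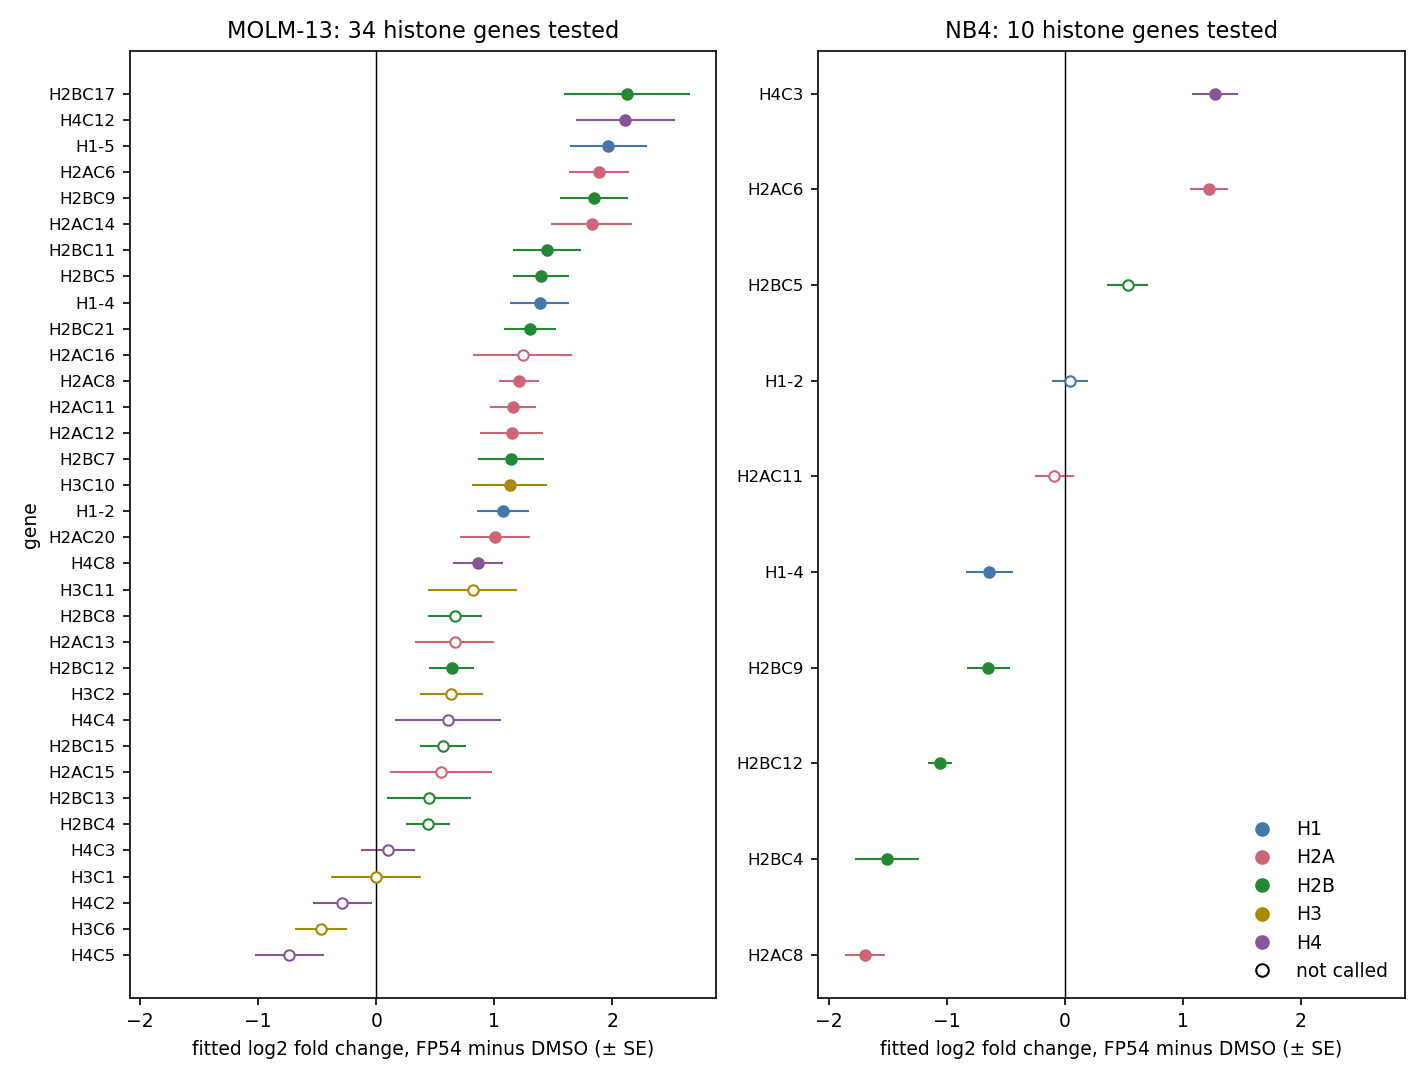
Fitted log2 fold change (FP54 minus DMSO, bars SE) of the histone genes tested in MOLM-13 (left, 34 genes) and NB4 (right, 10 genes), coloured by type, with open circles for genes not called. In MOLM-13, 31 points are above 0 and the points below 0 are open, and in NB4 the points run from −1.69 (H2AC8) to 1.27 (H4C3).

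The remaining 32 genes were too low to test in MOLM-13. Of these, 7 were at 0 RPKM in all 6 libraries, 9 had every FP54 library above every DMSO library and 1 had every FP54 library below, where 6.22% and 5.58% of all 10701 genes not tested in this line did so. Among the untested are 6 genes on chromosome 1 (H2AC18, H2AC19, H3C14, H3C15, H4C14 and H4C15) that have no 80-base window occurring once in the genome, so that their reads cannot be assigned to 1 gene. H2AC4 and H1-3, both with every window unique, were at 0.115 to 0.547 and 0.0779 to 0.446 RPKM with DMSO and at 1.10 to 1.30 and 0.672 to 0.884 with FP54.

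Gene structure and position were set beside these values, and the counts stand against 9.30% of all genes tested called higher. Of the tested histone genes, 27 have 1 exon in every annotated transcript, of which 15 rose (median log2 fold change 1.07). The other 7 have an annotated spliced transcript, and 4 of them rose (median 0.86). H2AC6, whose gene model extends to 1668 bases of exon, is one of the latter, and H2BC4, H2BC5 and H4C8 are others, with models of 2881, 861 and 2163 bases. H2BC4 overlaps HFE on the other strand, and since the sources used here do not state whether the counting used strand, its reads may include reads of that gene. By position, 8 of 17 tested rose in the first chromosome 6 cluster (median 0.67), 9 of 15 in the second (median 1.15) and 2 of 2 on chromosome 1. Of the 11 head-to-head H2A and H2B pairs, 7 had both genes tested. Both rose in 3 (H2AC11 and H2BC11, H2AC12 and H2BC12, H2AC20 and H2BC21), 1 rose in 2 (H2AC6 but not H2BC4, H2AC8 but not H2BC8) and neither was called in 2. The calls of H2AC20 and H2BC12 were each lost in several fits with 1 library left out.

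**Figure D3:**
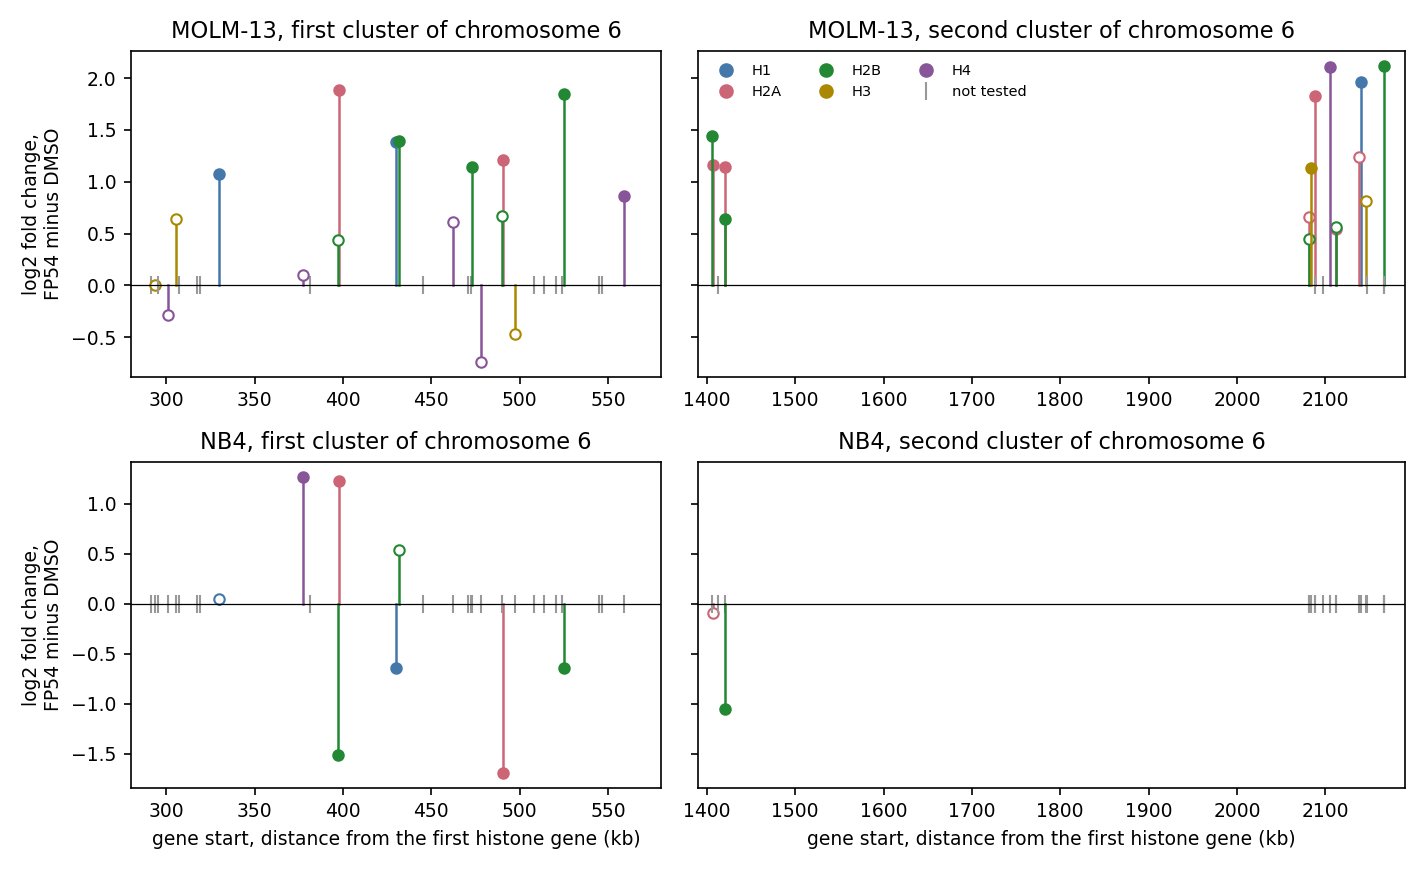
Fitted log2 fold change (FP54 minus DMSO) of tested histone genes by the distance of the gene start from the first histone gene of chromosome 6 (kb), for MOLM-13 (top) and NB4 (bottom), with open circles for genes not called and grey ticks for genes not tested. The pair H2AC1 and H2BC1, which starts the axis and was not tested, is outside the range drawn. In MOLM-13 called genes are spread over both clusters, and in NB4 genes higher and lower stand side by side in the first.

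NB4 had far less histone signal, and the genes did not move together. The sum over the 66 genes was 66.2, 65.5 and 61.2 RPKM in the DMSO libraries and 47.2, 55.6 and 60.1 in the FP54 libraries, a mean of 64.3 ± 2.7 against 54.3 ± 6.5. The H2B sum was 32.7 ± 2.0 with DMSO and 20.1 ± 1.9 with FP54, and the H4 sum was 7.62 ± 2.03 against 13.0 ± 3.1. These groups did not overlap, whereas those of the H1, H2A and H3 sums did. Single genes made up most of both shifts: H2BC12, with means of 20.3 (DMSO) and 9.73 (FP54), and H4C3, with 3.69 and 8.90. They are thus not shifts of all H2B or all H4 genes. Without H2AC6 the H2A sum was 8.12 ± 0.09 with DMSO and 5.66 ± 0.51 with FP54, with no overlap. Set across tables that were normalized separately, 34 genes were higher in every MOLM-13 DMSO library than in every NB4 DMSO library and 5 were lower (H1-4, H1-5, H2BC10, H3C3 and H4C6), where 26.0% and 28.0% of all genes were. H2AC6, at 118 RPKM in MOLM-13 with DMSO, was at 1.54 in NB4.

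Only 10 of the 66 genes reached a mean of 1 RPKM in NB4, and they were tested among 9853 genes. By the same cutoff 2 rose and 5 fell, where 18.6% of all genes tested were called higher and 10.7% lower. At an adjusted p below 0.05 (limma, Benjamini-Hochberg), 3 were higher and 5 lower, against 19.1% and 10.7%. The counts at an unadjusted p below 0.05 were also 3 and 5, against 33.3% and 24.7%, and limma-voom called 2 and 3, against 19.2% and 10.7%. Of the 10, H2AC8 and H2BC4 had FP54 means below 1 RPKM (0.779 and 0.687) and passed through the DMSO libraries, where they are high. With a mean of 1 RPKM required in each treatment neither was tested, and 5 genes were called, 2 higher and 3 lower. The median fitted change was −0.36 against 0.07 over all genes tested. In 3 of the 10 all FP54 libraries were above the DMSO libraries and in 5 all were below, where 34.3% and 26.2% of all genes tested did so. The median of all genes moved to −0.13 under median-ratio scaling and to −0.03 under quantile normalization, and the 7 called genes kept their direction under both. Over all genes tested, 1834 were higher and 1050 lower, against 1184 and 2008 under median-ratio scaling and 1280 and 1363 under quantile normalization. In the NB4 FP54 libraries the mean level of 400 olfactory receptor genes, which these cells should not use, was 0.0509 to 0.0544 RPKM, against 0.00175 to 0.00387 in the DMSO libraries, and the same 7 genes were called after this background was subtracted.

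The 2 genes that rose in NB4 were H4C3 and H2AC6. H4C3 was at 3.11, 4.98 and 2.98 RPKM with DMSO and at 7.46, 8.49 and 10.8 with FP54 (1.27 ± 0.19, adjusted p = 0.000373). H2AC6 was at 1.60, 1.83 and 1.18 with DMSO and at 3.79, 4.02 and 3.21 with FP54 (1.22 ± 0.16, adjusted p = 0.000156). In both genes every FP54 library was above every DMSO library. H2BC5 was at 2.75, 2.45 and 1.66 with DMSO and at 3.51, 2.99 and 3.38 with FP54, and passed by the adjusted p alone (0.53 ± 0.17, adjusted p = 0.0241).

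The 5 genes that fell in NB4 were H2AC8, H2BC4, H2BC12, H2BC9 and H1-4. H2AC8 was at 2.90, 2.90 and 2.34 RPKM with DMSO and at 0.913, 0.831 and 0.592 with FP54, on 27 to 32 reads against 4 to 5 (−1.69 ± 0.17, adjusted p = 2.36e-05). H2BC12, the highest histone gene of this line, was at 20.0, 22.3 and 18.8 with DMSO and at 9.15, 9.37 and 10.7 with FP54 (−1.06 ± 0.10, adjusted p = 1.57e-05). Of its read-length windows, only 65.4% occur once in the genome, and reads from the others cannot be placed at 1 site. H2BC4 was at 2.41, 1.49 and 2.29 with DMSO and at 1.04, 0.594 and 0.423 with FP54 (−1.51 ± 0.27, adjusted p = 0.00107). In all 3 every FP54 library was below every DMSO library, and for H2BC4 the gap between them was smaller than the DMSO SD of 0.499 RPKM. H2BC9 was at 2.62, 2.95 and 2.62 with DMSO and at 1.23, 1.86 and 2.15 with FP54 (−0.65 ± 0.18, adjusted p = 0.0125), and H1-4 at 6.28, 4.65 and 4.55 against 2.28, 3.93 and 3.79 (−0.64 ± 0.20, adjusted p = 0.0216). The calls of H2BC9 and H1-4 were closer to the cutoff: both were lost when either DMSO replicate 3 or FP54 replicate 1 was left out, where 3 genes were called lower. Limma-voom called neither. H1-4 was also lost without DMSO replicate 1, with a replicate block and without a trend in eBayes. H2BC9 was also lost without DMSO replicate 2 and with a pseudocount of 1. H1-2, at 4.77, 4.94 and 5.14 with DMSO and 4.13, 6.58 and 4.92 with FP54, and H2AC11 did not pass (0.05 ± 0.15 and −0.09 ± 0.17).

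**Figure D4:**
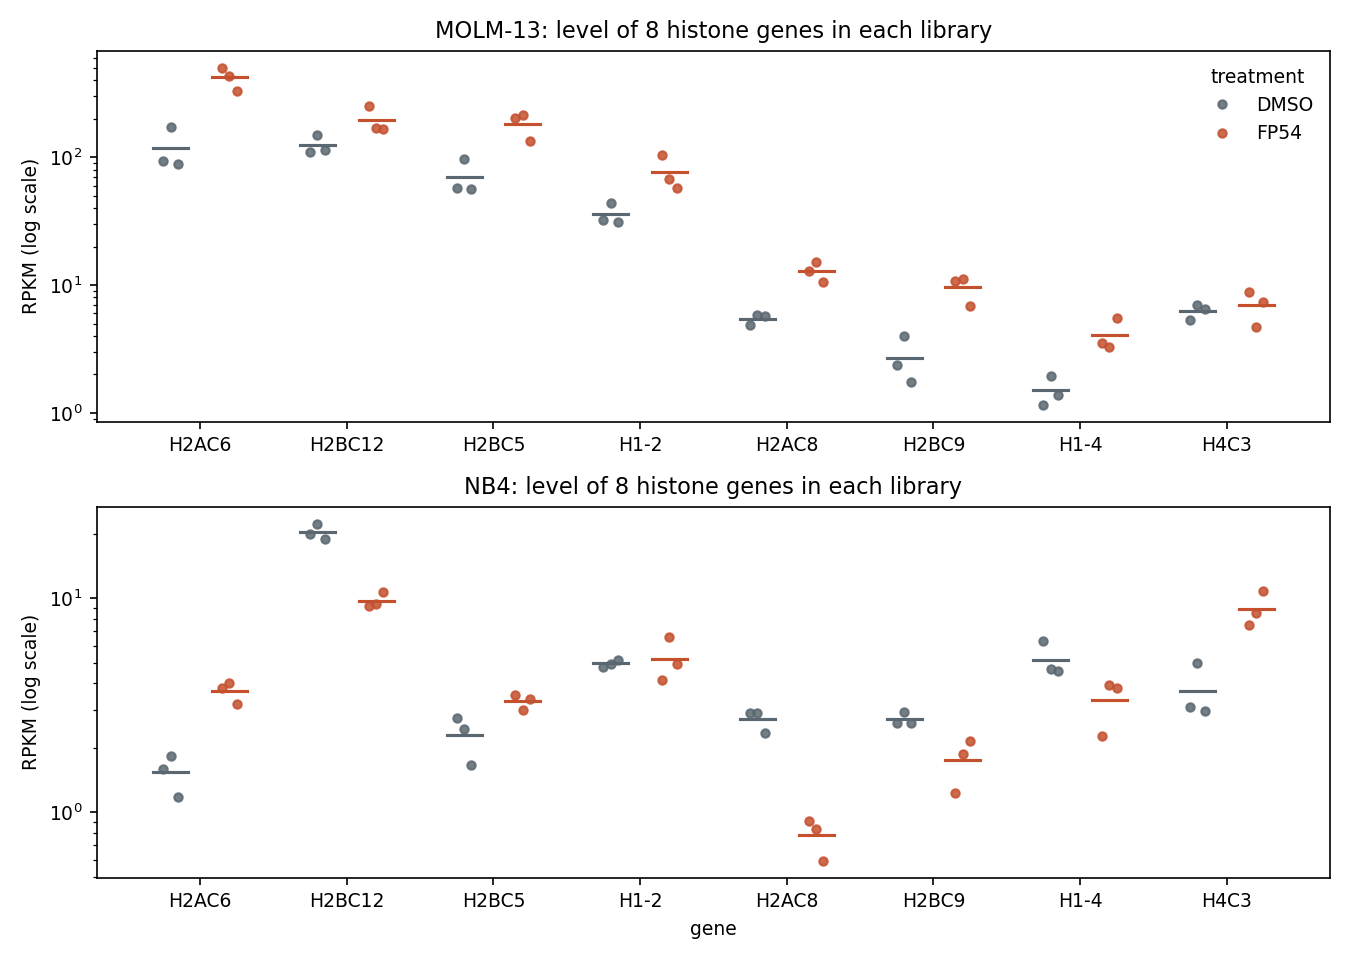
RPKM (log axes, with different ranges) of 8 histone genes in each DMSO and FP54 library of MOLM-13 (top) and NB4 (bottom), with a line at the mean of 3 libraries. H2AC8, H2BC9, H2BC12 and H1-4 are higher with FP54 in every MOLM-13 library and lower in every NB4 library, and H2AC6 is higher with FP54 in both lines.

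The 56 other genes were not tested in NB4. Of these 8 were at 0 in all 6 libraries, 2 had every FP54 library above the DMSO libraries and 5 had every one below, where 40.0% and 1.36% of all 10558 genes not tested in this line did so. No H3 gene was tested, the highest being H3C11 with means of 0.581 (DMSO) and 0.760 (FP54) RPKM and H3C3 with 0.642 and 0.365. Among H4 genes, H4C5 came after H4C3, with means of 0.635 and 0.872. H2BC8, nearest below the filter and the partner of H2AC8 across their shared promoter region, was at 0.495, 0.480 and 0.641 with DMSO and at 1.54, 0.703 and 1.41 with FP54, on 4 to 9 reads per library. Its libraries lay in the opposite order to those of H2AC8. H1-5, which rose in MOLM-13, was at 1.15, 1.30 and 1.24 with DMSO and at 0.355, 0.539 and 0.384 with FP54 in NB4.

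The difference between the lines was tested by an interaction term over the 12 libraries for the 8849 genes tested in both. All 10 histone genes tested in NB4 entered it. In 7 the FP54 effect was lower in NB4 than in MOLM-13 and in 1 it was higher at an adjusted p below 0.05, where 3.75% and 10.5% of all genes tested were. Over all genes, 332 were lower and 926 higher in NB4, against 834 and 630 under median-ratio scaling and 891 and 813 under quantile normalization. The largest difference was that of H2AC8, with −2.90 ± 0.25 on the log2 scale (adjusted p = 2.45e-06), followed by p in order by H2BC12 (−1.70 ± 0.23, adjusted p = 0.000177), H2BC9 (−2.49 ± 0.38, adjusted p = 0.000495) and H1-4 (−2.02 ± 0.35, adjusted p = 0.00134). Each of these 4 genes rose in MOLM-13 and fell in NB4, but H2AC8, like H2BC4, entered through its NB4 DMSO libraries alone and was not tested with a mean of 1 RPKM required in each treatment, where 5 of 8 histone genes were lower in NB4 and 1 higher. H4C3 was the exception, with an effect 1.17 ± 0.33 higher in NB4 (adjusted p = 0.0291), and this call was lost when DMSO replicate 1 or 3 or FP54 replicate 2 or 3 was left out. For H2AC6 the difference was −0.66 ± 0.33 and for H2BC5 −0.86 ± 0.32, and neither passed (adjusted p = 0.203 and 0.0919).

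Genes that make, process, carry and deposit histones were followed alongside. The counts of the gene lists below stand against these shares of all genes tested. In MOLM-13, 9.30% were called higher and 9.04% lower, with 17.6% and 17.4% at an unadjusted p below 0.05. In NB4 the shares were 18.6% and 10.7%, with 33.3% and 24.7% at an unadjusted p below 0.05. Limma-voom called 10.5% and 9.80% in MOLM-13 and 19.2% and 10.7% in NB4. Of 25 genes of histone mRNA transcription, 3′ end processing, translation and decay, 0 rose and 5 fell in MOLM-13 (CCNE1, SRRT, CPSF2, CSTF2 and CPSF3), and the median fitted change was −0.28. At an unadjusted p below 0.05, 1 was higher and 9 lower, and limma-voom called 0 higher and 6 lower. CCNE1, the cyclin E that drives NPAT with CDK2, was at 11.4, 7.43 and 12.3 RPKM with DMSO and at 3.96, 6.20 and 6.93 with FP54 (−0.86 ± 0.24, adjusted p = 0.0362). SRRT, a cap-complex partner, had a change of −0.85 ± 0.24 (adjusted p = 0.0350), and CPSF2, part of the cleavage complex, one of −0.81 ± 0.24 (adjusted p = 0.0444). The count of 5 was 0 with DMSO replicate 3 left out, 1 with FP54 replicate 1 left out and 2 with DMSO replicate 1 left out. In NB4, 24 were tested, and 0 fell by the cutoff or by limma-voom. At an unadjusted p below 0.05, 4 were higher and 9 lower. The 2 that rose were CASP8AP2, a histone locus body protein (0.67 ± 0.19, adjusted p = 0.0138), and CCNE2 (0.63 ± 0.14, adjusted p = 0.00375). Neither of the 2 was called under quantile or median-ratio scaling, and median-ratio scaling called 5 lower.

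SLBP itself was at 68.8, 64.9 and 80.1 RPKM with DMSO and at 46.9, 69.7 and 59.3 with FP54 in MOLM-13 (−0.29 ± 0.17, adjusted p = 0.235). In NB4 it was at 206, 217 and 227 with DMSO and at 158, 150 and 157 with FP54, with no overlap. Its change of −0.48 ± 0.08 was below the minimum change required (adjusted p = 0.000535). The level of the SLBP message thus lay lower in every NB4 FP54 library, where 26.2% of all genes tested in this line did so. The part of SLBP in the values of the histone genes was not tested. NPAT had fitted changes of 0.03 ± 0.25 in MOLM-13 and 0.45 ± 0.17 in NB4, and neither was called.

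Of 24 histone chaperone genes, 23 were tested in each line, where 9.04% of all genes tested were called lower in MOLM-13 and 10.7% in NB4. In MOLM-13 none rose and 1 fell, HIRA, a chaperone of the replacement histone H3.3 (−0.59 ± 0.18, adjusted p = 0.0453), and this call was lost when DMSO replicate 1, DMSO replicate 3 or FP54 replicate 1 was left out, while 7 genes were lower with FP54 replicate 2 left out and 3 with DMSO replicate 2 left out. At an unadjusted p below 0.05, 0 were higher and 7 lower, and limma-voom called 0 and 2. In NB4 none rose and 4 fell: HIRA (−0.75 ± 0.15, adjusted p = 0.00190), DAXX (−0.67 ± 0.12, adjusted p = 0.00112), SSRP1 (−0.53 ± 0.10, adjusted p = 0.00131) and HAT1. At an unadjusted p below 0.05, 1 was higher and 10 were lower, where 33.3% and 24.7% of all genes tested were. Limma-voom called 0 higher. The 4 became 2 without DMSO replicate 2 and 8 under median-ratio scaling.

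Replacement variants, most of which are made through the cell cycle from ordinary polyadenylated mRNAs, gave a further comparison. H2AX, which the list holds, is an exception that carries the histone stem-loop found by the search above. In MOLM-13, 8 of 11 were tested and none was called in either direction at p below 0.01 (median 0.32), while at an unadjusted p below 0.05 there were 3 higher and 0 lower and limma-voom called 0. In NB4, 9 of the 11 were tested (median −0.05), and of these 9 none rose and CENPA fell. Of all genes tested in NB4, 18.6% were called higher and 10.7% lower. At an unadjusted p below 0.05, 1 was higher and 4 were lower, and limma-voom called 0 higher and 1 lower. Under median-ratio scaling 4 were lower. CENPA, the centromeric H3, had a change of −0.67 ± 0.09 in NB4 (adjusted p = 0.000233).

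Since replication-dependent histone mRNAs are made with DNA replication, a list of 43 S phase genes was read in the same way, and all 43 were tested in both lines. In MOLM-13, 0 rose and 9 fell, with a median of −0.52, where 9.30% and 9.04% of all genes tested were called. Of the 43, 0 were higher and 27 lower at an unadjusted p below 0.05 (17.6% and 17.4% of all genes), and limma-voom called 0 and 13. The largest changes were those of UHRF1, which carries DNA methylation through replication (−1.33 ± 0.25, adjusted p = 0.00845), MRPL36 (−1.28 ± 0.28, adjusted p = 0.0144) and POLR1B (−1.18 ± 0.35, adjusted p = 0.0415). The published list holds the last 2, although MRPL36 is a protein of the mitochondrial ribosome and POLR1B a subunit of RNA polymerase I. The count was 4 when DMSO replicate 1, DMSO replicate 3 or FP54 replicate 1 was left out, and 16 when it was DMSO replicate 2 or FP54 replicate 3. The other 34 S phase genes were not called, and the part of the cell cycle in the values of the histone genes was not tested. In NB4, 2 rose (CASP8AP2 and CCNE2, which the machinery list also holds) and 8 fell, with a median of −0.29, MCM7 (−0.80 ± 0.08, adjusted p = 2.37e-05) and GMNN (−0.70 ± 0.08, adjusted p = 6.52e-05) among them. Over all genes tested, 18.6% and 10.7% were called. At an unadjusted p below 0.05, 4 S phase genes were higher and 25 lower, where 33.3% and 24.7% of all genes were.

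**Figure D5:**
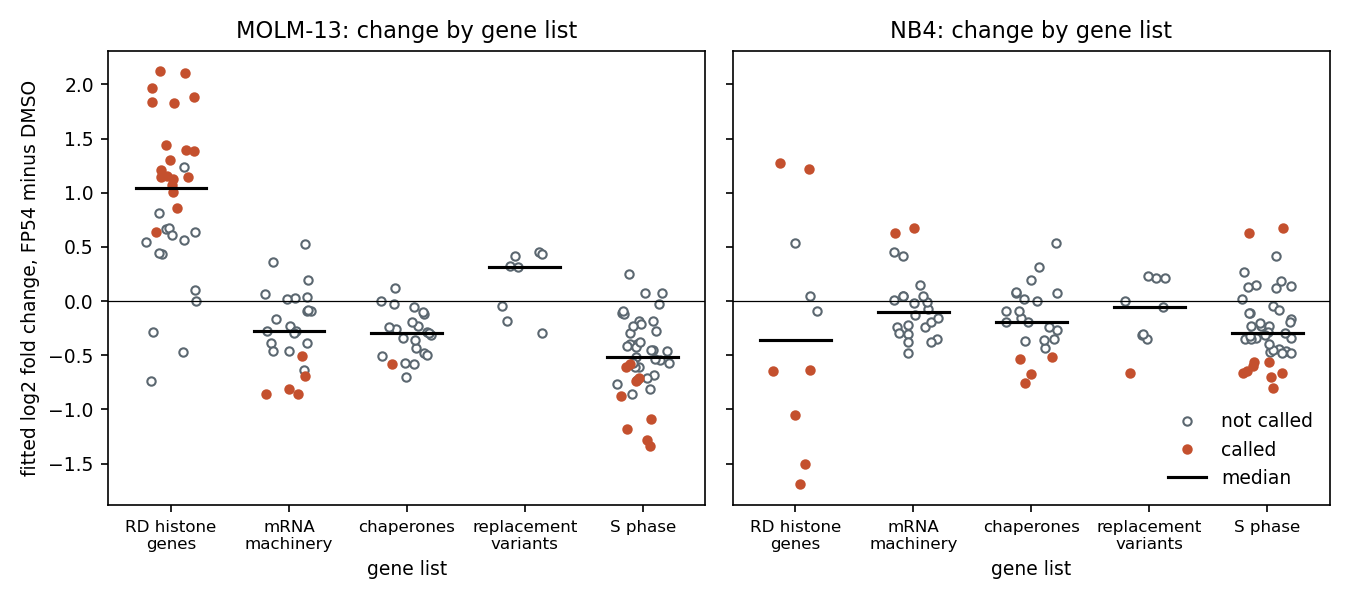
Fitted log2 fold change (FP54 minus DMSO) of each tested gene of 5 lists in MOLM-13 (left) and NB4 (right), with filled points for genes called and a line at the median. RD stands for replication-dependent. In MOLM-13 the median of the replication-dependent histone genes is 1.04 and that of the S phase genes is −0.52, and in NB4 the medians are −0.36 and −0.29.

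Levels of some myeloid genes also differed between the same libraries. Of 6 myeloid markers (CD33, MPO, SPI1, CEBPA, ANPEP and LYZ), 0 were called higher and 1 lower in MOLM-13, where their summed level was 756 to 833 RPKM with DMSO and 816 to 1081 with FP54. The 1 was MPO, a granule enzyme of immature myeloid cells, at 12.8 to 18.1 RPKM with DMSO and at 3.29 to 4.64 with FP54. In NB4, 1 was called higher and 1 lower, and the sum was 2341 to 2590 with DMSO and 1747 to 1839 with FP54. ANPEP was at 118 to 147 RPKM with DMSO and at 535 to 574 with FP54 in that line, and MPO fell from a mean of 2170 to 1116. SPI1 (−0.39) and CEBPA (−0.20) were lower in every NB4 FP54 library without being called, and the libraries of CD33 and LYZ overlapped. Of 3 granule proteases listed as promyelocytic markers (ELANE, AZU1 and PRTN3), AZU1 and PRTN3 were called lower in NB4, PRTN3 from a mean of 61.0 to 15.9 RPKM, and none was called in MOLM-13. The part of these genes in the changes of the histone genes was not tested.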

How the data were processed

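Poly(A)-selected RNA of MOLM-13 and NB4 cells, 3 DMSO and 3 FP54 libraries each, was used. Per the labels and the study's methods, the authors trimmed reads with Cutadapt 4.8, removed duplicates, aligned to hg38 with STAR 2.7.11b and counted protein-coding genes of GENCODE with featureCounts 2.0.3. The deposited values are RPKM, and the gene length and library total behind them are not given in the sources used here. Reads were recovered as RPKM times gene length (GENCODE, lengths for 20304 of 20411 genes). They were whole, within 0.05 of a read, for 20148 (MOLM-13) and 20139 (NB4) genes, and for 65 of the 66 histone genes. Intervals and depths from them cover counting error only.

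Tests used limma 3.58.1 (R 4.3.3, eBayes with a trend) on log2(RPKM + 0.1) for genes with a mean of at least 1 RPKM over the 6 libraries of a line. A fold change is on that scale, which understates the change of low genes. Calls needed p below 0.01 and a log2 change of 0.5 or more, as in the study, and the interaction at a Benjamini-Hochberg adjusted p below 0.05. Sums by type have no test. In each line the genes named were the 2 of each type with the highest mean, the 4 largest and 4 smallest fitted changes, those nearest the filter, SLBP, NPAT, the 3 largest called changes of each list and, for the interaction, the 4 with the lowest p. Others are named for counts of 5 or fewer or were chosen after their values were seen. The histone genes and lists (S phase genes from Seurat 5.3.0) were chosen with earlier results of these data known, and 1 item of the replacement variant list is not reported here and is in none of its counts. Alternatives were another pseudocount, filter, scaling, prior, call rule or test, the replicate number as a block, and leaving out each library; a background subtraction and a filter in each treatment were added after seeing the data. The fits were tested on simulated data.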

Additional observations from a re-analysis of the deposited data

Results flagged for a closer look

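The FP54 effect differed between the lines, by the interaction term at an adjusted p below 0.05, for 8 of the 10 histone genes tested in both. Of all genes tested in both lines, 3.75% were lower in NB4 and 10.5% higher. The difference, NB4 minus MOLM-13 on the log2 scale, was −2.90 for H2AC8, −1.70 for H2BC12, −2.49 for H2BC9, −2.02 for H1-4, −1.94 for H2BC4, −1.25 for H2AC11 and −1.02 for H1-2, and it was 1.17 for H4C3. For H2AC8, H2BC12, H2BC9 and H1-4 every MOLM-13 FP54 library was above its DMSO libraries and every NB4 FP54 library below. H2AC8 and H2BC4 entered through their NB4 DMSO libraries alone, with NB4 FP54 means of 0.779 and 0.687 RPKM. Neither was tested with a mean of 1 RPKM required in each treatment. H2BC4 also overlaps HFE on the other strand, and reads of those 2 genes may not be kept apart. For H2BC12, only 65.4% of the read-length windows occur once in the genome.

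The other lists hold 25 machinery, 24 chaperone, 11 variant and 43 S phase genes, some of them in more than 1 list. Among the genes of these lists given here the interaction passed for only 2, both higher in NB4, where 10.5% of all genes tested in both lines were. The difference was 0.91 for CCNE2 and 0.77 for WDR76. WDR76, an S phase gene, fell in MOLM-13 (−0.87) and had a fitted change of −0.11 in NB4.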

How the results depend on the processing

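The 19 histone genes called higher in MOLM-13 were 14 to 22 when 1 library was left out, and 13 of them were called in each of those fits. They were 9 of 12 tested with a filter at 5 RPKM and 14 with no filter (9 shared), and the other settings gave 16 to 21, with 0 lower under every setting. In NB4 the filter at 5 RPKM left 3 histone genes, with 1 higher and 1 lower. The 5 lower were 3 by limma-voom or with 1 RPKM required in each treatment, and 3 to 5 without 1 library. Scaling mattered for the NB4 lists: under median-ratio scaling 21 S phase, 8 chaperone, 5 machinery and 4 variant genes were lower and 0 S phase or machinery genes higher, and under quantile normalization 5 S phase and 2 chaperone genes were lower, 1 chaperone gene higher and 0 S phase or machinery genes higher. For the difference between the lines, 15 histone genes were lower and 0 higher in NB4 with no filter, 2 of 3 were lower with the filter at 5 RPKM, and 0 were higher by limma-voom. With a replicate block, 21 histone genes were called in MOLM-13 (19 shared) and 7 in NB4 (6 shared), and 0 were higher in NB4 in the interaction. The labels give only a number, the deviations of same-numbered DMSO and FP54 libraries correlated at r from −0.26 to 0.12, and the block changed no other count of histone genes by over 1.5 times.

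With no filter, 1 machinery, 0 chaperone and 1 S phase genes were lower in MOLM-13, and 0 machinery, 0 S phase and 1 variant genes higher in NB4. With the filter at 5 RPKM, 3 machinery and 5 S phase genes were lower in MOLM-13, and 0 machinery and 0 S phase genes higher in NB4. Limma-voom called 2 chaperone genes lower in MOLM-13, quantile normalization 1 variant gene higher in MOLM-13, and a pseudocount of 1 called 1 machinery and 1 S phase gene higher in NB4. Leaving out 1 library gave ranges in MOLM-13 of 0 to 6 machinery, 0 to 7 chaperone and 4 to 16 S phase genes lower and 0 to 1 variant genes higher, and in NB4 of 1 to 4 machinery, 0 to 1 chaperone and 1 to 3 S phase genes higher and 0 to 1 machinery and 2 to 4 chaperone genes lower, and 0 to 1 histone genes higher in the interaction. The causes were not tested. Ratios of the sums by type moved by less than the spread between libraries when taken as shares of all RPKM. No called gene among those named reversed its direction under any of these settings. At the shallowest depth a histone gene near 1 RPKM rests on about 3 reads, as H2BC13 does.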
